A study of Saccharomyces cerevisiae with 24 samples.

Results

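The data concern 10 heat shock genes of *Saccharomyces cerevisiae*, taken by gene symbol from the 4073 genes with a symbol on the arrays. They are the membrane stress genes *HSP30* and *HSP12*, the small heat shock genes *HSP26* and *HSP42*, and the Hsp100 genes *HSP104* and *HSP78*. The others are the Hsp90 genes *HSP82* and *HSC82* and the mitochondrial chaperonin genes *HSP60* and *HSP10*. The study asked how divergence of *FZF1*, which encodes a transcription factor for sulfite resistance, changed gene expression. All strains had an S288c background in which the native *FZF1* was deleted and an *FZF1* allele was integrated at the *ura3* locus. The alleles were full length *S. paradoxus*, 2 chimeras and full length *S. cerevisiae*. Chimera C.P. joined a 5′ noncoding region of *S. cerevisiae* to a coding region of *S. paradoxus*, and chimera P.C. was the reverse. Cultures grew for 3 hours at 30 °C in YPD with 75 mM tartaric acid at pH 3.5 and were sampled 15 min after addition of sodium sulfite to 1 mM, and at 0 min. Each of the 8 groups of allele and time had 3 arrays, the sample was in Cy3 on 2 of them and in Cy5 on 1, and the other channel held a pool of all RNA samples.

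Heat shock proteins are chaperones and membrane proteins whose genes yeast induces under many stresses, through the heat shock factor Hsf1 and the general stress factors Msn2 and Msn4. Small heat shock proteins bind unfolding proteins and keep them in a form that can be refolded, and Hsp104 pulls proteins out of aggregates together with the Hsp70 system. Hsp90 completes the folding of kinases, receptors and other client proteins, and Hsp60 with Hsp10 forms the folding chamber of the mitochondrial matrix. *HSP30* encodes a plasma membrane protein that is known from heat, ethanol and weak acid stress and that restrains the proton pump Pma1.

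Values are given on the log2 scale, as the ratio of a sample to the pool, so a value of 0 means the level of the pool, and levels of different genes cannot be set against each other. They are relative to the other genes on an array, so a change in total RNA per cell would not be seen. The arrays have no untreated sample at 15 min, so sulfite and the 15 min themselves cannot be told apart. The *FZF1* value served as a check of the labels. It lay between −5.57 and −2.47 on the 12 arrays whose allele carried the coding region of *S. paradoxus*. On 11 of the 12 whose allele carried that of *S. cerevisiae* it lay between −0.11 and 2.21. The *FZF1* probes are of *S. cerevisiae* design, so these values do not compare the level of *FZF1* mRNA between the coding regions. The library labelled *S. cerevisiae* allele, 0 min, replicate 2 stood apart with an *FZF1* value of −3.63. Without it, the count of members called was the same for the responses, both F-tests, the full length alleles, and the combination over both times and at 15 min. The count was also the same for the coding and noncoding regions in the response and over both times, and for *S. paradoxus* against each chimera. Counts for the other comparisons were not read without this library. *SSU1*, the sulfite efflux pump gene that *FZF1* activates, lay between −0.13 and 1.46 at 15 min and between −1.79 and −0.92 at 0 min. The study's methods call the replicates independent and sampled every culture at both times, but the labels do not tie an array to a culture, so the fits took all arrays as separate.

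Of the 10 genes, 7 rose after sulfite in the mean over the 4 alleles and 2 fell (limma, adjusted p under 0.05). Over all 4071 genes tested, 79.1% were called, 39.5% higher and 39.6% lower, so that being called was common to most genes. The rise was at least 2-fold for 7 of the 10, against 9.87% of all genes, and at least 4-fold for 6 of the 10, against 2.85% of all genes. The median response of the 10 genes was 2.52 on the log2 scale, and that of all genes was 0.01. The 10 genes were chosen with earlier results of these data known, so these shares describe them and are not a test. For 6 genes, *HSP30*, *HSP12*, *HSP26*, *HSP42*, *HSP104* and *HSP78*, all 12 arrays at 15 min lay above all 12 arrays at 0 min, a pattern of 19.2% of all genes.

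**Figure D1:**
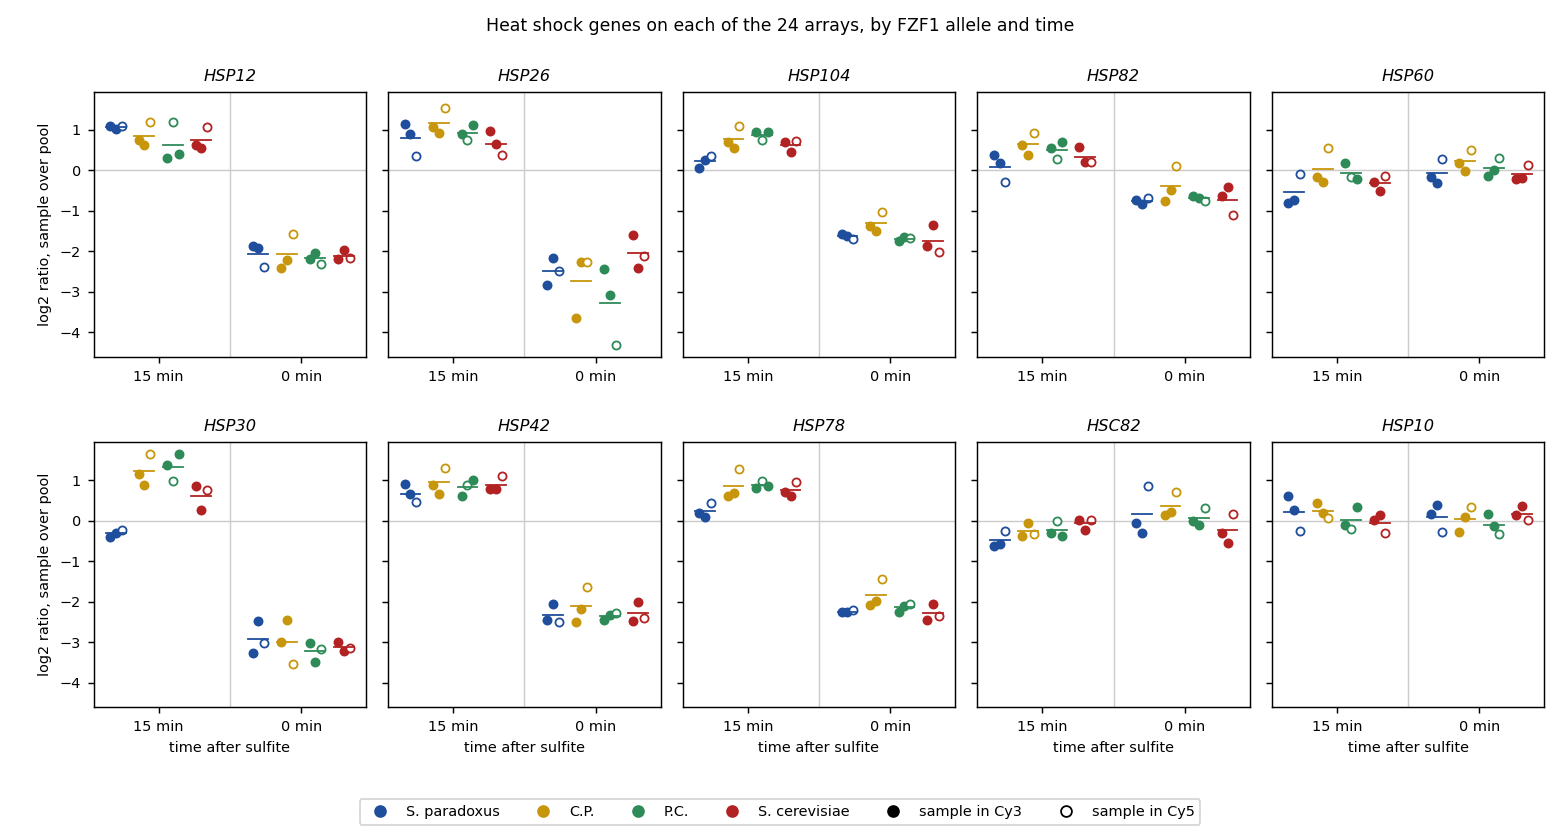
Log2 ratio of sample over pool for each heat shock gene (y axis) on each array, with the 15 min groups left of the 0 min groups and the alleles in the order *S. paradoxus*, C.P., P.C. and *S. cerevisiae*. Points are arrays (open where the sample was in Cy5) and bars are means of 3 arrays. *HSP12*, *HSP26*, *HSP104*, *HSP30*, *HSP42* and *HSP78* have no overlap between 15 min and 0 min, and in *HSP30* the *S. paradoxus* arrays at 15 min, between −0.40 and −0.22, lie below those of the other alleles.

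Among the membrane stress genes, *HSP30* had the largest response of the 10. Its log2 ratio had a lowest value of −0.40, a median of 0.87 and a highest value of 1.65 on the 12 arrays at 15 min, against −3.53, −3.08 and −2.45 on the 12 arrays at 0 min. The mean response was 3.78 ± 0.13 on the log2 scale (SE), or 13.8-fold (limma, adjusted p = 2.1e-16). *HSP12* encodes a small protein that stabilizes membranes under osmotic and other stress. It had a lowest value of 0.30, a median of 0.88 and a highest value of 1.20 at 15 min, against −2.40, −2.17 and −1.56 at 0 min. Its response was 2.92 ± 0.11 (SE; limma, adjusted p = 2.0e-15). The spread of *HSP30* at 15 min was wider (SD 0.73) than that of *HSP12* (SD 0.32), and its lowest 3 arrays were those of the *S. paradoxus* allele.

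The small heat shock genes rose by similar amounts. *HSP26*, the gene of a cytosolic small heat shock chaperone, lay between 0.36 and 1.54 with a median of 0.91 at 15 min. At 0 min its values lay between −4.30 and −1.60 with a median of −2.41. *HSP42*, which gathers misfolded proteins into cytosolic deposits, lay between 0.46 and 1.29 with a median of 0.83 at 15 min, against values between −2.50 and −1.63 with a median of −2.36 at 0 min. Their responses were 3.52 ± 0.19 for *HSP26* and 3.10 ± 0.10 for *HSP42* (SE; limma, adjusted p = 6.8e-13 and 1.3e-16). *HSP26* varied more than *HSP42* before sulfite (SD 0.74 and 0.26), with its lowest array, at −4.30, in the P.C. chimera.

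Both Hsp100 genes rose. *HSP104*, the cytosolic disaggregase, had a lowest value of 0.07, a median of 0.71 and a highest value of 1.10 at 15 min, against −2.00, −1.64 and −1.03 at 0 min. *HSP78*, its counterpart in the mitochondrial matrix, had 0.09, 0.70 and 1.29 at 15 min, against −2.46, −2.15 and −1.43 at 0 min. The responses were 2.22 ± 0.08 for *HSP104* and 2.81 ± 0.09 for *HSP78* (SE; limma, adjusted p = 5.1e-16 and 6.2e-17). In 7 of 8 groups the Cy5 array gave the highest *HSP78* value, by 0.25 on average. With a dye term in the fit the response of *HSP78* had the same estimate (limma, adjusted p = 1.1e-18).

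The Hsp90 genes moved in opposite directions. *HSP82*, the strongly inducible gene of the pair, lay between −0.29 and 0.93 with a median of 0.37 at 15 min, against values between −1.09 and 0.11 with a median of −0.69 at 0 min, so the times overlapped. Its response was 1.03 ± 0.11, or 2.04-fold (SE; limma, adjusted p = 1.8e-08). *HSC82*, which is expressed at a high level without stress, lay between −0.61 and 0.03 with a median of −0.28 at 15 min, against values between −0.54 and 0.86 with a median of 0.07 at 0 min. It fell by 0.34 ± 0.12 on the log2 scale (SE; limma, adjusted p = 0.0118). This call was lost without the arrays numbered replicate 1 (−0.38, adjusted p = 0.0704) and without those numbered replicate 3 (−0.15, adjusted p = 0.0861). On 7 of the 8 groups the Cy5 array gave the highest *HSC82* value, by 0.40 on average, and with a dye term in the fit the adjusted p was 0.0006 at the same estimate. The Hsp90 proteins are nearly identical, and how far the probes of one gene detect the other was not tested.

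The mitochondrial chaperonin genes changed little. *HSP60* lay between −0.81 and 0.55 at 15 min, against values between −0.30 and 0.50 at 0 min, and fell by 0.26 ± 0.11 (SE; limma, adjusted p = 0.0414). The call was lost in 15 of the 27 fits that left out an array or a replicate number, with adjusted p up to 0.172, and under quantile normalization (−0.22, adjusted p = 0.0592). Those fits left out replicate number 1 or 2 throughout, or 1 array: at 15 min replicate 1 or 2 of *S. paradoxus*, C.P. or *S. cerevisiae* or replicate 2 or 3 of P.C., and at 0 min replicate 3 of any allele or replicate 1 of C.P. (−0.22 to −0.29). *HSP10* had a lowest value of −0.30, a median of 0.10 and a highest value of 0.62 at 15 min, against −0.33, 0.12 and 0.39 at 0 min. Its response was 0.05 ± 0.11 (SE; limma, adjusted p = 0.679), so at this spread no change was detectable. With a dye term the adjusted p of *HSP60* was 0.0028 at the same estimate. The Cy5 array was the highest of its group for *HSP60* in 7 of 8 groups (by 0.40 on average) and the lowest for *HSP10* in 7 of 8 groups (−0.29 on average).

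With each allele taken alone, the same 7 genes rose. The *S. paradoxus* allele gave 7 genes higher and 1 lower, against 30.3% and 29.7% of all genes. The C.P. chimera gave 7 higher and 1 lower, against 29.3% and 29.3%. The P.C. chimera gave 7 higher, against 28.7%, and the *S. cerevisiae* allele 7 higher, against 29% of all genes, and neither gave one lower. The gene called lower was *HSC82* both times, at −0.64 ± 0.24 with the *S. paradoxus* allele (SE; limma, adjusted p = 0.0243) and −0.61 ± 0.24 with the C.P. chimera (adjusted p = 0.0331). It was at −0.29 ± 0.24 with the P.C. chimera and at 0.16 ± 0.24 with the *S. cerevisiae* allele, and at 0.00 in that allele without the library that stood apart. Neither *HSC82* call held without replicate 1 (adjusted p = 0.135 and 0.161) or without the Cy5 array of that allele at 0 min (adjusted p = 0.233 and 0.165). The call with the *S. paradoxus* allele was also lost without replicate 1 or replicate 2 at 15 min (adjusted p = 0.0797 and 0.0696) and under quantile normalization (adjusted p = 0.0524), and that with the C.P. chimera without replicate 1 or replicate 3 at 15 min (adjusted p = 0.0964 and 0.0803). *HSP60* was at −0.49 ± 0.22 with the *S. paradoxus* allele (adjusted p = 0.0679). *HSP82* with the *S. paradoxus* allele was lost without replicate 1 (0.70, adjusted p = 0.0600).

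The size of the response differed most between alleles for *HSP30*. It was 2.61 for *S. paradoxus*, 4.22 for C.P., 4.56 for P.C. and 3.74 for *S. cerevisiae* (log2, each ± 0.25 SE). *HSP26* ranged over 1.48, between 4.19 ± 0.39 with the P.C. chimera and 2.70 ± 0.39 with the *S. cerevisiae* allele. *HSP104* ranged over 0.72 and *HSP78* over 0.57, both lowest with the *S. paradoxus* allele, at 1.85 ± 0.16 and 2.48 ± 0.17. *HSP42* and *HSP12* had the narrowest ranges, 0.19 and 0.31, and *HSP42* differed by −0.19 ± 0.29 between *S. paradoxus* and *S. cerevisiae* (SE).

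**Figure D2:**
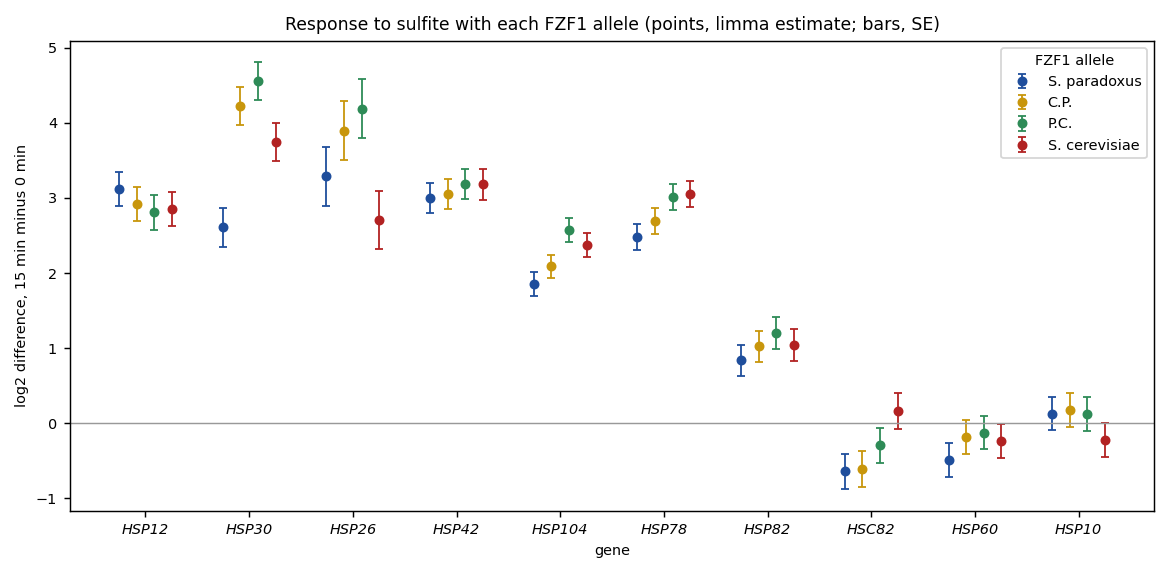
Response of each heat shock gene (log2, 15 min minus 0 min, y axis) with each *FZF1* allele, as limma estimates with SE bars. *HSP30* runs from 2.61 with the *S. paradoxus* allele to 4.56 with the P.C. chimera, and *HSP42* stays between 3.00 and 3.19.

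The values at 15 min are given by allele for *HSP30*, *HSP104* and *HSP78*. *HSP30* had −0.40, −0.30 and −0.22 on the *S. paradoxus* arrays, 1.16, 0.89 and 1.65 on the C.P. arrays, 1.38, 0.98 and 1.64 on the P.C. arrays, and 0.85, 0.26 and 0.77 on the *S. cerevisiae* arrays. *HSP104* had 0.07, 0.26 and 0.35 on the *S. paradoxus* arrays, 0.71, 0.56 and 1.10 on the C.P. arrays, 0.95, 0.74 and 0.95 on the P.C. arrays, and 0.71, 0.47 and 0.72 on the *S. cerevisiae* arrays. *HSP78* had 0.19, 0.09 and 0.44 on the *S. paradoxus* arrays, 0.61, 0.69 and 1.29 on the C.P. arrays, 0.82, 0.99 and 0.85 on the P.C. arrays, and 0.72, 0.62 and 0.96 on the *S. cerevisiae* arrays. In each of these 3 genes the 3 *S. paradoxus* arrays lay below all 9 others, a pattern of 1.52% of all genes. Against the *S. cerevisiae* arrays alone, *HSC82* was separated too, which made 4 of the 10 genes against 4.15% of all genes. The gap in *HSC82* was narrow, with a highest *S. paradoxus* value of −0.25, on the Cy5 array, and a lowest *S. cerevisiae* value of −0.22. No such separation was present at 0 min in *HSP30*, whose values were −3.26, −2.46 and −3.02 with the *S. paradoxus* allele and −2.99, −3.22 and −3.14 with the *S. cerevisiae* allele. In *HSP104* and *HSP78* the *S. paradoxus* arrays already lay below the C.P. arrays at 0 min. The ranges were −1.70 to −1.56 against −1.50 to −1.03 for *HSP104*, and −2.26 to −2.21 against −2.08 to −1.43 for *HSP78*. In both genes they overlapped with P.C. and *S. cerevisiae* at 0 min.

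The full length alleles, set against each other, gave no call for any of the 10 genes. At 15 min, 0 of 10 passed limma, against 0.0491% of all genes, and 3 had an unadjusted p under 0.05, against 8.57%. The difference, *S. paradoxus* minus *S. cerevisiae*, was −0.93 ± 0.25 for *HSP30* (SE; limma, adjusted p = 0.354), −0.53 ± 0.17 for *HSP78* (adjusted p = 0.418) and −0.41 ± 0.16 for *HSP104* (adjusted p = 0.502). At 0 min, 0 of 10 passed limma, against 0% of all genes, and 0 had an unadjusted p under 0.05, against 2.85%. For the response, 0 of 10 passed limma, against 0% of all genes, and 4 had an unadjusted p under 0.05, against 9.6%. These were *HSP30* (−1.13), *HSC82* (−0.81), *HSP78* (−0.57) and *HSP104* (−0.53), with adjusted p between 0.451 and 0.501. With weights for the quality of each array, limma called 5 of the 10 genes at 15 min (*HSP12* higher and *HSP30*, *HSP104*, *HSP78* and *HSC82* lower), but also 26.6% of all genes.

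Comparisons of the *S. paradoxus* allele with the chimeras were chosen after the values were seen. *HSP30* was lower with the *S. paradoxus* allele than with the P.C. chimera at 15 min, by −1.64 ± 0.25 on the log2 scale (SE; limma, adjusted p = 0.0032), and so was *HSP104*, by −0.66 ± 0.16 (adjusted p = 0.0423), while *HSP78* was at −0.64 ± 0.17 (adjusted p = 0.0553). These were 2 of the 10 genes, against 1.45% of all genes called lower. Against the C.P. chimera, *HSP30* was lower by −1.54 ± 0.25 (limma, adjusted p = 0.0133), 1 of the 10 genes against 0.0983% called lower. The calls of *HSP30* were lost without replicate 1 (−1.57 with adjusted p = 0.709 against P.C., and −1.53 with adjusted p = 0.845 against C.P.). That against C.P. was also lost without *S. paradoxus* 15 min replicate 1 (adjusted p = 0.0799) or replicate 2 (adjusted p = 0.0557), or without C.P. 15 min replicate 3 (adjusted p = 0.0987). The call of *HSP104* was lost in 15 of 39 settings, with its difference between −0.79 and −0.54 over all of them. Its adjusted p was 0.0531 with values as deposited and 0.0585 with the last feature alone, 0.999 without replicate 1 and 0.113 without replicate 2. Without 1 array at 15 min it was 0.247 or 0.142 (*S. paradoxus* replicate 1 or 2), 0.182 or 0.105 (P.C. replicate 1 or 3), and 0.0502 to 0.0514 (C.P. replicate 1, *S. cerevisiae* replicate 1 or 2). Without 1 array at 0 min it was 0.0508 to 0.0545 (replicate 1 of *S. paradoxus*, P.C. or *S. cerevisiae*, or replicate 2 of P.C.). No gene of the 10 passed between C.P. and *S. cerevisiae* (0.0246% of all genes did), P.C. and *S. cerevisiae* (0%) or C.P. and P.C. (0.0246%), where *HSP30* was at 0.61 ± 0.25, 0.71 ± 0.25 and −0.10 ± 0.25 (limma, adjusted p from 0.998). Of the 10 genes, 1, 1 and 0 had an unadjusted p under 0.05 there, against 1.69%, 3.27% and 1.01% of all genes.

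**Figure D3:**
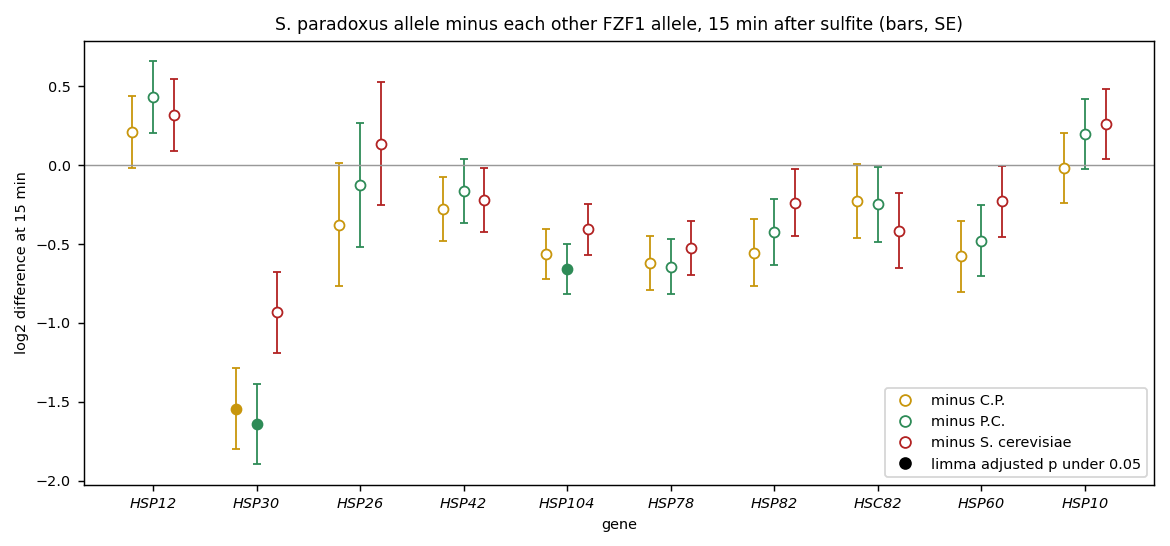
Log2 difference at 15 min between the *S. paradoxus* allele and each other *FZF1* allele (y axis) for each heat shock gene, with SE bars and filled points where limma's adjusted p was under 0.05. Filled points are *HSP30* against C.P. (−1.54) and P.C. (−1.64) and *HSP104* against P.C. (−0.66).

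The chimeras divide *FZF1* into its 5′ noncoding and coding region, each with *S. paradoxus* minus *S. cerevisiae* as the direction. For the coding region in the response, 0 of 10 genes passed limma, against 0% of all genes, and 4 had an unadjusted p under 0.05, against 6.66%: *HSP30* (−0.73 ± 0.25), *HSC82* (−0.56 ± 0.24), *HSP104* (−0.50 ± 0.16) and *HSP78* (−0.45 ± 0.17), all at an adjusted p of 0.711. For the noncoding region in the response, 0 passed, against 0% of all genes, and 0 had an unadjusted p under 0.05, against 1.11%. Over both times, 0 passed for the coding region, against 0.0491%, with 0 unadjusted against 1.92%. For the noncoding region over both times, 0 passed, against 0%, and 1 had an unadjusted p under 0.05, *HSP78* at −0.19 ± 0.09, against 1.01%. At each time, 6 arrays carried either coding region, and two-sided exact permutation tests compared them. These tests covered only the 4 genes with an unadjusted limma p under 0.05 for the coding region in the response. The genes were thus picked on the same arrays, and the tests are not an independent check. *HSP30* averaged 0.46 ± 0.88 with the *S. paradoxus* and 0.98 ± 0.49 with the *S. cerevisiae* coding region at 15 min (SD, n = 6 each, exact p = 0.232). Each set of 6 joins 2 alleles, so its SD also holds the difference between them. The *HSP30* means were −0.31 and 1.23 for *S. paradoxus* and C.P., and 1.33 and 0.62 for P.C. and *S. cerevisiae*. Over 8 tests of 4 genes at both times the adjusted p of the permutation tests ran from 0.277 to 0.290.

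The combination of regions, the mean of the full length alleles minus the mean of the chimeras, separated *HSP30* most. Over both times 0 of 10 genes passed limma, against 0.0246% of all genes, and 5 had an unadjusted p under 0.05, against 14.5%, with *HSP30* at −0.52 ± 0.13 (adjusted p = 0.132). At 15 min alone, chosen after the values were seen, 1 of 10 passed, against 0.368% of all genes in either direction and 0.221% lower, and 5 had an unadjusted p under 0.05, against 14.9%. That gene was *HSP30*, at −1.13 ± 0.18 (limma, adjusted p = 0.0175), with rank 1 of all 4071 genes by p. *HSP104* was at −0.41 ± 0.11 (adjusted p = 0.108) and *HSP78* at −0.37 ± 0.12 (adjusted p = 0.174). The call of *HSP30* was lost without C.P. 15 min replicate 3 (adjusted p = 0.0540), without *S. cerevisiae* 15 min replicate 2 (adjusted p = 0.0642) and without replicate 1 (adjusted p = 0.680), and held in the other 36 of 39 settings. For the response, 0 of 10 passed, against 0%, and 2 had an unadjusted p under 0.05, *HSP30* (−1.22 ± 0.25) and *HSP26* (−1.05 ± 0.39), against 4.74%.

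Tests of any difference among the 4 alleles gave no call either. The F-test of allele over both times called 0 of 10 genes, against 0.0737% of all genes, and 4 had an unadjusted p under 0.05, against 5.9%. Of these, *HSP30*, *HSP78* and *HSP104* had an adjusted p of 0.473, and *HSP82* of 0.791 (limma). The F-test of allele by time called 0 of 10, against 0% of all genes, and 2 had an unadjusted p under 0.05, *HSP30* and *HSP104*, against 5.35%. *HSP30* had rank 2 of all genes by p in that test (limma, adjusted p = 0.332). With arrays of the same allele and replicate number taken as 1 culture, which the labels do not give, that test called *HSP30*, against 0.0737% of all genes. The study's analysis of variance takes every feature as a separate observation, with a term for the feature, and uses P under 0.01 without adjustment. The study estimated its false discovery rate by permuting sample labels, which was not repeated here. In the study's model, 9 of 10 genes passed for time, against 80.5% of all genes. For allele it passed 5 (*HSP30*, *HSP104*, *HSP78*, *HSP82* and *HSP60*), against 12.1%. For allele by time it passed 5 (*HSP30*, *HSP26*, *HSP104*, *HSP78* and *HSC82*), against 12.1%.

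Differences between 2 genes on the same array do not move with the scaling of arrays. They were taken for 5 pairs within classes, chosen after the values were seen, with permutation tests of 12 arrays at 15 min against 12 at 0 min (two-sided, 100000 resamples, adjusted over 5 pairs). *HSP82* minus *HSC82* averaged 0.65 ± 0.40 at 15 min and −0.72 ± 0.43 at 0 min (SD, n = 12 each; permutation p = 2e-05, the smallest these could give, adjusted p = 5e-05), with 11 of 12 arrays at 15 min above all at 0 min. *HSP104* minus *HSP78* averaged −0.06 ± 0.15 at 15 min and 0.53 ± 0.13 at 0 min (SD, n = 12 each; permutation p = 2e-05, the smallest, adjusted p = 5e-05), with no overlap between the times. The gene of the mitochondrial disaggregase thus rose more than that of the cytosolic one. *HSP12* minus *HSP30* averaged 0.11 ± 0.90 at 15 min and 0.97 ± 0.48 at 0 min (SD, n = 12 each; permutation adjusted p = 0.01), and its 3 highest arrays at 15 min were those of the *S. paradoxus* allele. *HSP26* minus *HSP42* and *HSP60* minus *HSP10* changed by 0.42 and −0.31 (permutation adjusted p = 0.1 for both).

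**Figure D4:**
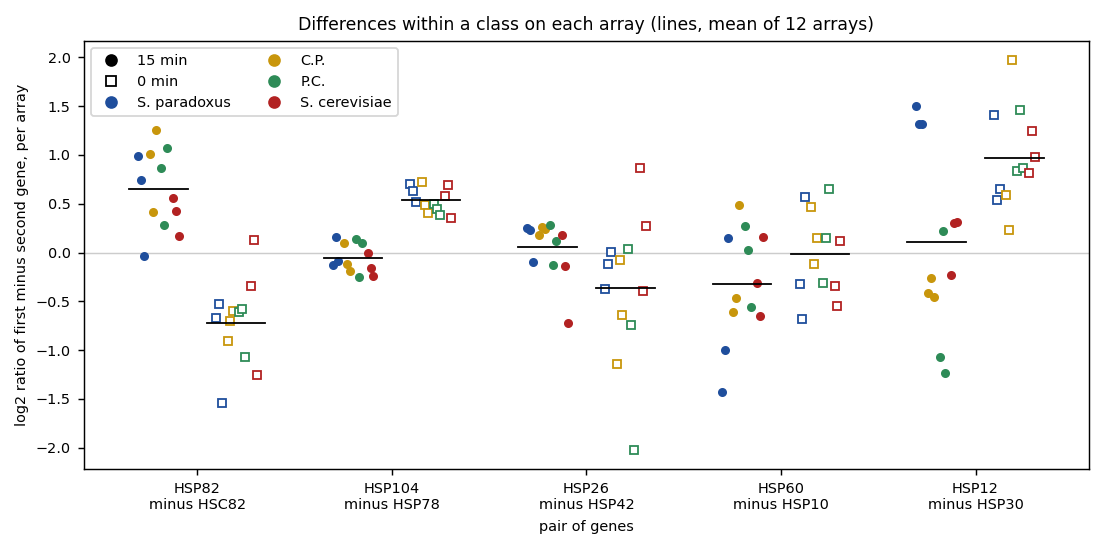
Log2 ratio of the first gene minus that of the second on each array (y axis) for 5 pairs, with 15 min (filled circles) left of 0 min (open squares), alleles in colour and the mean of 12 arrays as a line. *HSP104* minus *HSP78* has no overlap between the times, with means of −0.06 and 0.53.

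Other chaperone genes were read against the 39.5% of all genes that rose and the 39.6% that fell, and lists may share genes. Of 16 Hsp70 chaperones and nucleotide exchange factors measured, 7 rose and 7 fell (limma, adjusted p under 0.05), with a median of 0.07, close to the shares of all genes. *SSA4*, the heat-inducible cytosolic Hsp70 gene, rose by 3.31 and the Hsp110 gene *SSE2* by 2.75, while the ribosome-associated Hsp70 genes *SSB1* and *SSB2* were at −1.29 and −1.20. Of 14 Hsp40 cochaperones, 9 rose and 3 fell (median 0.37), from *MDJ1* of the mitochondrial matrix (0.95) and *CWC23* (0.91) to *ZUO1* (−0.60) and *YDJ1* (−1.08). Of 10 Hsp90 cochaperones, 5 rose and 4 fell (median 0.15). The prolyl isomerase gene *CPR6* and the kinase cochaperone gene *CDC37* rose by 0.49 and 0.48, less than *HSP82*, and *CNS1* and the phosphatase gene *PPT1* were at −1.55 and −1.40. Of 15 genes of the cytosolic chaperonin and prefoldin, 0 rose and 13 fell (median −0.49), with *CCT7* (−0.90) and *CCT5* (−0.77) lowest, *GIM3* at −0.16 and *PLP2* at −0.18, which did not pass (adjusted p = 0.203).

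Of 12 genes of mitochondrial import and quality control, 4 rose and 5 fell (median 0.02), also close to the shares of all genes, with *MDJ1* and *MAS2* (0.31) highest and *SSC1* (−0.33) and *OXA1* (−0.35) lowest. Of 3 other genes tied to heat shock by name or role that were measured, *BTN2* rose by 1.60 and *HSF1*, the gene of the heat shock factor, by 0.81, and *HSP150* was at 0.18 (limma, adjusted p = 0.107). All 27 general stress genes measured rose, with a median of 2.62, close to the 2.52 of the 10 heat shock genes. The highest were *ALD3* (4.97) and *GND2* (4.61) and the lowest *YGP1* and *ALD2* (1.25 each). Like the 10 genes, the lists were chosen with earlier results of these data known, so these counts and medians are descriptions and not tests. Of 20 genes for the plasma membrane, proton pump and weak acid tolerance, 10 rose and 2 fell (median 0.38), so fewer were called than the 79.1% of all genes. *SPI1* rose by 2.62 and *YRO2*, which encodes a relative of Hsp30, by 1.94, whereas the sodium pump gene *ENA1* and the weak acid pump gene *PDR12* were at −0.66 and −1.54. *PMA1*, the proton pump gene, was at −0.13 (limma, adjusted p = 0.227), and *MRH1*, another relative of *HSP30*, at −0.14 (adjusted p = 0.097), both chosen after their values were seen. No gene of these 8 lists passed either F-test of allele or a comparison of the full length alleles. None passed for the coding or the noncoding region in the response. The other comparisons of alleles, among them those with the chimeras and the combination of regions, were not read for these lists.

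**Figure D5:**
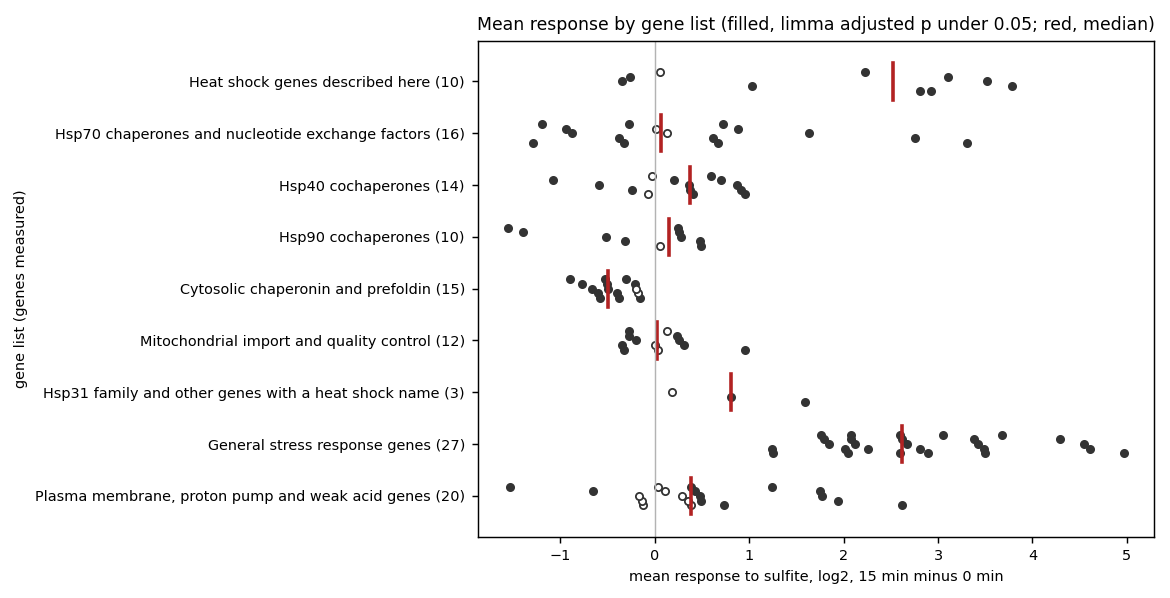
Mean response to sulfite (log2, 15 min minus 0 min, x axis) of each gene in the heat shock group and in 8 lists (y axis, genes measured in brackets), filled where limma's adjusted p was under 0.05, with the median of a list in red. The medians of the heat shock genes (2.52) and the general stress genes (2.62) lie apart from those of the cochaperone lists, at 0.37 for Hsp40 and 0.15 for Hsp90.

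Across the 12 arrays at 15 min, *HSP30* and *HSP104* had the highest correlation of the 45 pairs (r = 0.96), *HSP104* and *HSP78* had 0.90 and *HSP26* and *HSP82* had 0.86, while *HSC82* and *HSP10* were at −0.71 and *HSP12* and *HSP30* at −0.39. The median of the 45 pairs was 0.34. Across the 12 arrays at 0 min, *HSP104* and *HSP78* were at 0.87, whereas *HSP30* was at −0.23 with *HSP104* and at −0.35 with *HSP78*, which at 15 min were 0.96 and 0.85. These are descriptions over arrays that share alleles, dyes and a reference pool.

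Over all 24 arrays, which share the difference between the times, the genes most like *HSP30* were *YPK2*, a protein kinase gene (r = 0.990), *UGA2* (0.982) and *DOG1* (0.981). *YPK2* was also first over the 12 arrays at 15 min (0.961), followed by *HXT2* (0.953) and *MUP3* (0.936), a ranking added after the values were seen. The most like *HSP104* were *EMI2* (0.994), *GPD1* and *YSC84* (0.990 each), and the most like *HSP78* were *TPS2* (0.995), *EMI2* (0.994) and *XKS1* (0.991). *HSP42* was most like *MRL1* (0.993), *CTT1* (0.992) and *XKS1* (0.991), *HSP12* most like *OM45* (0.993), *COX20* and *GIP2* (0.992 each), and *HSP26* most like *GRE1* (0.980), *HXT5* (0.972) and *GND2* (0.971). The genes most like *HSP82* were *MSP1* (0.929), *DOG2* (0.927) and *HRD1* (0.922). *HSC82* was most like the translation factor gene *TEF1* (0.971), the ribosomal gene *RPL4A* (0.964) and *SCW4* (0.954), unlike the 7 genes that rose. *HSP60* was most like *SSC1*, which encodes the Hsp70 of the mitochondrial matrix (0.955), *VMA3* (0.923) and *NFS1* (0.909), and *HSP10* had the lowest such values, with *RPN2* (0.842), *MRP13* (0.818) and *RDI1* (0.815). The arrays also differ in dye, and Cy5 minus Cy3 was 0.40 for *HSC82*, 0.40 for *HSP60* and −0.29 for *HSP10*. How far dye shaped these rankings was not tested.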

How the data were processed

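RNA was measured on 24 Agilent yeast V2 arrays in 2 colours, 3 arrays for each of 8 groups of allele and time. The deposited log2 values are ratios of sample over pool that the authors had median normalized within each array. The background correction, the treatment of dyes and the filter behind empty values are not given in the sources used here. Signal intensities were not used here, so precision rests on the 3 arrays of a group.

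The numbering of the value table was matched to the probe list by position, which gave a median correlation between features of 1 gene of 0.928, against −0.0064 when equal numbers were matched. The direction of the ratios was checked on the 16 pairs of arrays that shared a group but not a dye orientation (median correlation 0.768). Of 15744 features, 8152 carried 1 gene symbol (4073 genes, 125 symbols brought up to date) and 7592 were left out. Every member had 2 features and a value on all 24 arrays.

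The mean over features was taken for each gene, and the median gene of an array (−0.06 to 0.08) was set to 0. limma 3.58.1 (R 4.3.3) estimated 8 group means for 4071 genes, those measured on 2 or more arrays in each group. P values were adjusted by Benjamini-Hochberg over these genes within each contrast, with a limit of 0.05, and the script was tested on simulated data. Exact permutation tests used SciPy 1.17.1 with NumPy 2.4.6 and pandas 2.3.3 in Python 3.11.15. Figures were drawn with matplotlib 3.10.9. The study's analysis of variance (allele, time, their interaction and the feature, each feature an observation, P under 0.01 without adjustment) was repeated as an alternative. The others were values as deposited, quantile normalization, a dye term, Cy3 arrays alone, single features, array weights, a robust fit, other filters, a limit of 0.01, blocks by replicate number, and omission of single arrays or of 1 replicate number.

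The members and all gene lists were chosen with earlier results of these data known. Named are all 10 members, the 2 genes with the largest and the 2 with the smallest mean response of each list, the 3 genes most correlated with each member over 24 arrays, *FZF1* and *SSU1*. Any other gene is marked as such where it is named.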

Additional observations from a re-analysis of the deposited data

How the results depend on the processing

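Over the 15 counts of members called that do not rest on contrasts chosen after the values were seen, 588 recounts lay within 1.5 times the count in the report and 15 lay further off. No member that was called turned direction, while some uncalled differences near 0 changed sign. The calls of the 7 genes that rose in the mean over alleles held in every setting. The share of all genes called stands beside each count. For allele over both times the count was 2 with Cy3 arrays alone (4.52%), 3 with array weights (10.2%) and 5 in the study's model (12.1%), and 0 to 2 when arrays or replicate numbers were left out (5.75% at 2, without replicate 3). For allele by time it was 2 with array weights (3.32%) and 5 in the study's model (12.1%). *S. paradoxus* minus *S. cerevisiae* gave 2 with Cy3 arrays alone (4.52%) and 5 with array weights (26.6%) at 15 min, and 1 with array weights in the response (5.04%). The coding region in the response gave 1 (*HSP30*) with Cy3 arrays alone (4.01%). The combination over both times gave 3 with a dye term (*HSP30*, *HSP78* and *HSP60*, all lower, 1.25%). It gave 4 with Cy3 arrays alone (12.5%) and 4 with array weights (13%). When arrays or replicate numbers were left out it gave 0 to 4 (18.2% at 4, without replicate 3). The contrasts chosen after the values were seen were less stable: *S. paradoxus* minus P.C. gave 0 to 6 under omissions and 1 to 5 under other settings, minus C.P. 0 to 4 and 0 to 5, and the combination at 15 min 0 to 3 and 0 to 5. *HSP78* against P.C. was called in 10 of 39 settings. *HSP10* with the C.P. chimera was called without replicate 3 (0.41, adjusted p = 0.0467). The causes were not tested.

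The methods sampled each culture at both times, but the labels do not say that a replicate number marks 1 culture. Deviations of arrays within an allele correlated at a median of 0.40 for the same number (12 pairs, −0.47 to 0.76) and −0.16 for other numbers (24 pairs). The Cy5 array was replicate 3 in every group except P.C. at 15 min, where it was replicate 2. Number and dye thus went together, so these correlations cannot show whether a number marks 1 culture. No pairing was assumed. With replicate number as a replicate block the count stayed at 9 for the mean response and was 9 in place of 8 for the *S. paradoxus* response (*HSP60*, adjusted p = 0.0088). With arrays of the same allele and number taken as 1 culture (random block), *HSP60* had an adjusted p of 0.0187 there (limma). In that fit the allele by time count was 1 (*HSP30*, adjusted p = 0.0498), against 0.0737% of all genes. *HSP60* was called with the *S. paradoxus* allele under 10 settings in all. The 3 arrays of a group limit the precision.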
